A study of Ciona robusta with 9 samples.

Results

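The experiment set whole Ciona robusta embryos that carried Brachyury (Bra) under regulatory DNA of Tbx6-r.b against control embryos. Its members were the 3 Tbx6-r.b>Bra and the 3 control libraries, 6 of the 9 libraries of the series, taken by their titles and set side by side by replicate number. Ciona robusta is a sea squirt, an invertebrate chordate whose swimming larva builds a notochord flanked by tail muscle. Fertilized eggs without their chorion were electroporated with 1 plasmid per group and kept at 21 °C until Hotta stage 19.5, and RNA was taken from 400 whole embryos per sample. Control embryos received Bra>GFP, which joins Bra regulatory DNA to green fluorescent protein. Tbx6-r.b>Bra embryos received Tbx6-r.b>Venus-Bra, a fluorescent Venus-Bra fusion. Since no library came from embryos with Tbx6-r.b regulatory DNA alone, the effects of the regulatory DNA and of Bra cannot be told apart. Only control embryos received a plasmid with Bra regulatory DNA and green fluorescent protein. A fall with Tbx6-r.b>Bra therefore cannot be told apart from a rise due to the control plasmid. Nor can a rise with Tbx6-r.b>Bra be told apart from a fall due to the control plasmid. The submitters call the replicates biological without giving their origin, and p-values reflect how far these libraries scatter, which may be technical.

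Brachyury is a T-box transcription factor that marks the notochord lineage of ascidian embryos and switches on notochord genes there. Tbx6-r.b is another T-box factor, active in the muscle lineage, where it acts upstream of muscle differentiation genes, so its regulatory DNA is used to reach tail muscle precursors. Electroporated plasmids are commonly inherited by only part of an embryo's cells. In whole embryos, a change in the number of cells that express a gene and a change in RNA per cell cannot be told apart.

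Values were deposited per gene model under KH identifiers, and these come without names (a RefSeq gene table of 21486 genes matched 0 of the 15284 identifiers). The level of Bra itself, muscle and notochord markers and pathway lists were therefore not analysed here, no gene is given a role, and at most 2 identifiers that rose and 2 that fell are printed. Levels are deposited normalized counts, meaning reads divided by 1 scaling factor per library. The 6 libraries held 9043181 to 10222725 reads, and the 10 most abundant genes took 10.6% to 12.5% of a library. A gene was tested where its mean over the 6 libraries was at least 10 normalized counts, which left 11445 gene models. Log2 changes are on the scale of log2(normalized count + 1), which understates the change of low genes. A gene was called at a Benjamini-Hochberg adjusted p under 0.05 in limma, two-sided, over all tested genes.

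In Tbx6-r.b>Bra embryos 61 genes were called (0.533% of tested genes), of which 58 rose (0.507%) and 3 fell (0.0262%). Of the 58, 21 were gained, meaning that their control mean was under 10 normalized counts, and 37 were raised from a control mean of 10 or more. The gained genes had a median log2 change of 3.87 (2.10 to 6.58) and the raised genes one of 1.99 (0.81 to 4.08). Over all tested genes the median log2 change was −0.02. Libraries of different groups with the same replicate number deviated together, and the same test with the number as a block, named the paired fit below, called 446 genes (3.9%). Of these, 341 rose (2.98% of tested genes; 71 gained and 270 raised) and 105 fell (0.917%), and all 61 genes of the unpaired fit were among them. The unpaired count rested on single libraries: it was 14 without Tbx6-r.b>Bra replicate 2 and 14 without replicate 3, but 94 without replicate 1 and 34 without control replicate 2. The paired fit has 2 residual degrees of freedom per gene, and limma gave every gene the spread common to its expression level, so the spread of a single gene between pairs does not enter its p-value.

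**Figure D1:**
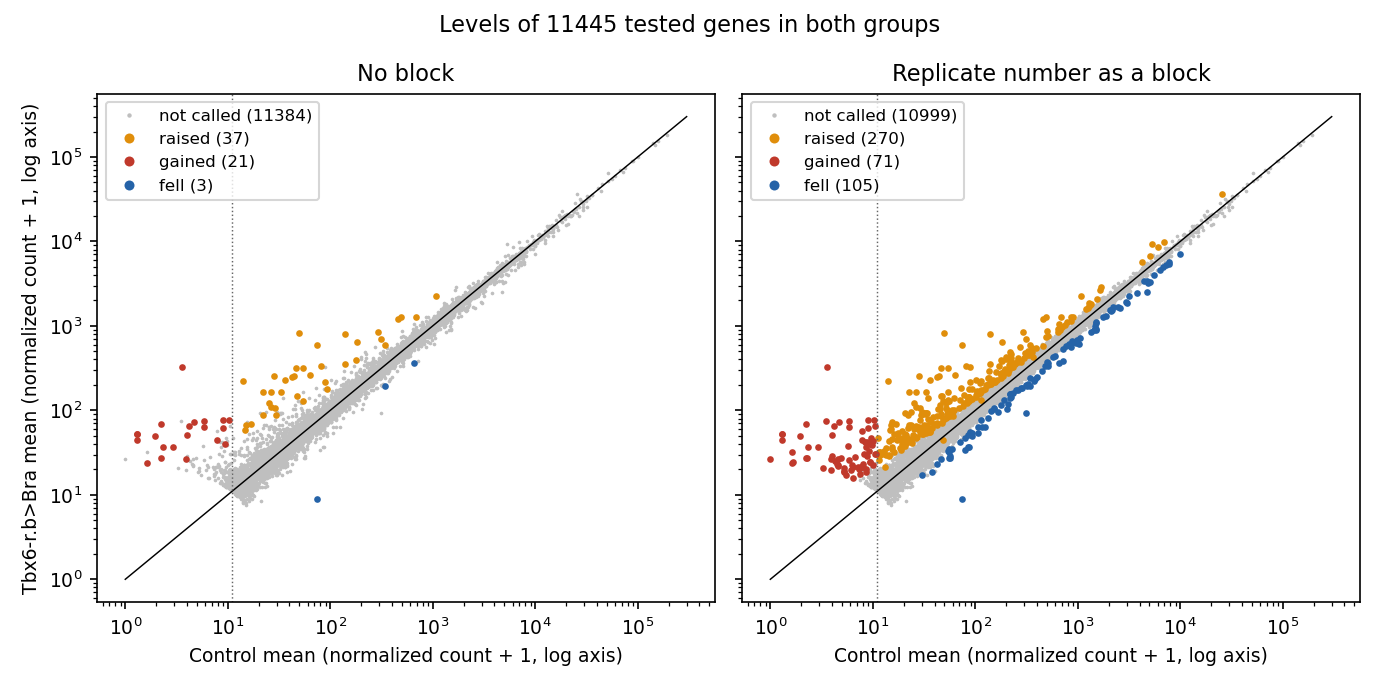
Mean normalized count plus 1 of each tested gene in control (x, log axis) and Tbx6-r.b>Bra (y, log axis), unpaired fit on the left and paired fit on the right; the diagonal marks equal levels and the dotted line a control mean of 10. Gained genes (21 and 71) lie left of the dotted line, raised genes (37 and 270) above the diagonal to its right, and fallen genes (3 and 105) below the diagonal.

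The split into gained and raised genes follows from the control level, so what it shows is the level reached. The 21 gained genes had control means of 0.313 to 9.38 normalized counts and reached a median of 50.8 with Tbx6-r.b>Bra (22.7 to 322). Only 1 of them reached 100. Together they took 7.76, 7.43 and 8.06 CPM (counts scaled to the reads of the library) in control replicates 1 to 3, and 121, 173 and 132 with Tbx6-r.b>Bra. Most were detected in control embryos: 16 had more than 3 reads over the 3 controls, and 5 had 1 to 3 reads. At such low control levels the fitted change depends on the value added before taking logs, and not only for those 5. All 21 were at least 4-fold higher and 16 at least 8-fold. The test admits a gene with a control mean under 10 only if it is higher with Tbx6-r.b>Bra, and 160 such genes were tested. The reverse case, a Tbx6-r.b>Bra mean under 10 with a higher control mean, was met by 70 tested genes, of which 1 was called.

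The 37 raised genes went from a median control mean of 48.9 to a median of 251 with Tbx6-r.b>Bra, and 4 of them exceeded 1000. Their summed share was 499, 580 and 604 CPM in the controls and 1378, 2022 and 1703 in the Tbx6-r.b>Bra libraries. Among them, 34 were at least 2-fold higher, 18 at least 4-fold and 3 at least 8-fold. At the edge of the split, the gained gene with the highest control mean stood at 9.38 and rose to 76.2, and the raised gene with the lowest stood at 13.02 and rose to 225. No called gene of the unpaired fit lay between these control means. In the paired fit there was no such gap: gained genes had control means up to 9.86 and raised genes from 10.3.

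The gained gene with the largest log2 change was KH.C10.588. It stood at 2.04, 4.70 and 0.940 normalized counts in control replicates 1 to 3, and at 416, 352 and 198 in the Tbx6-r.b>Bra replicates. Every Tbx6-r.b>Bra library was far above every control. The means were 2.56 ± 1.93 and 322 ± 112 (SD, n = 3), a log2 change of 6.58 ± 0.44 (SE, limma adjusted p = 0.000114), and 8 control reads were set against 930. The change was 7.10, 5.95 and 6.68 in pairs 1 to 3. Its size depended on the value added before taking logs, which the SE does not cover. It was 6.85 with 0.5 added and 5.40 with 5 added. On the deposited log2 values, which are on another scale, it was 1.63.

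The raised gene with the largest log2 change was KH.L12.5. It stood at 70.4, 35.7 and 40.4 normalized counts in control and at 764, 1004 and 682 with Tbx6-r.b>Bra. The groups did not overlap, and the change was largest in pair 2, where control was lowest and Tbx6-r.b>Bra highest. The means were 48.9 ± 18.8 and 817 ± 167 (SD, n = 3), a log2 change of 4.08 ± 0.26 (SE, limma adjusted p = 0.000114). Within pairs 1 to 3 it was 3.42, 4.77 and 4.04.

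**Figure D2:**
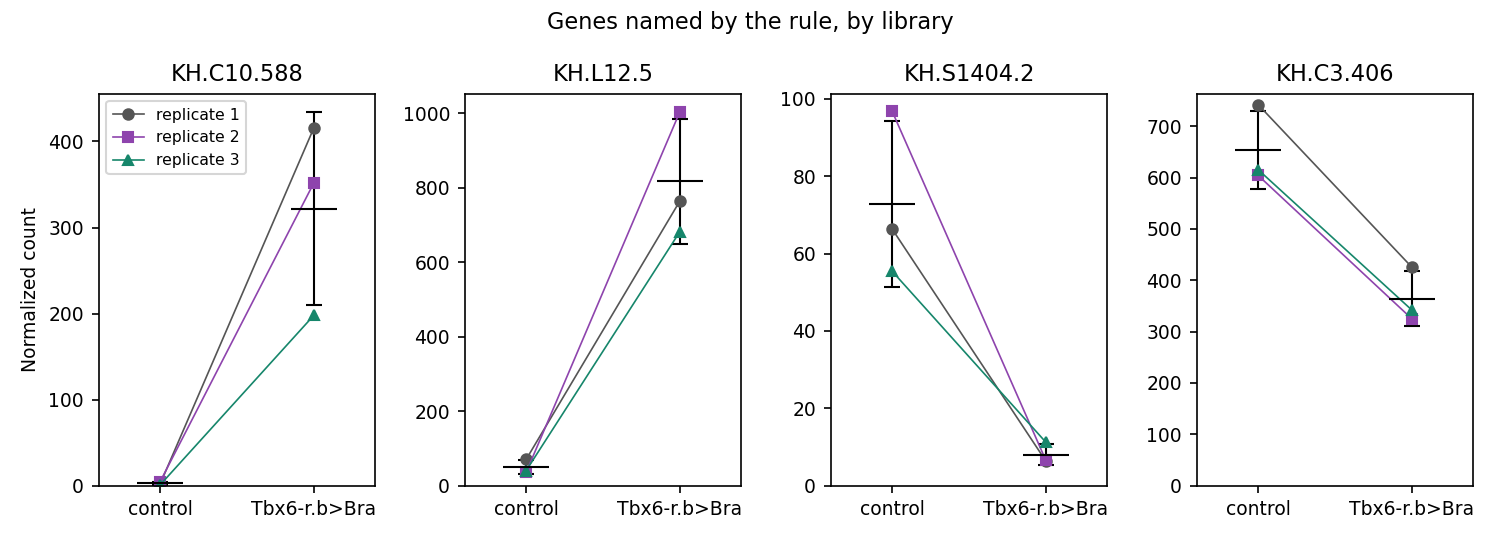
Normalized count (y, linear axis from 0) of the 4 named genes in each library; lines join libraries of the same replicate number, and black bars are the mean ± SD of 3 libraries. KH.C10.588 and KH.L12.5 rise in each pair, KH.S1404.2 falls to 11.2 or less and KH.C3.406 to 325 to 426.

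Losses were fewer and, with a single exception, shallow. KH.S1404.2 was the only gene of the 3 that fell to a mean under 10. It stood at 66.4, 96.8 and 55.4 normalized counts in control and at 6.34, 6.52 and 11.2 with Tbx6-r.b>Bra, with no overlap. Whether its control level depends on the control plasmid was not tested. The means were 72.9 ± 21.4 and 8.02 ± 2.76 (SD, n = 3), a log2 change of −3.04 ± 0.36 (SE, limma adjusted p = 0.00362) that was −3.20, −3.70 and −2.21 in pairs 1 to 3.

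KH.C3.406 stood at 742, 604 and 616 normalized counts in control and at 426, 325 and 342 with Tbx6-r.b>Bra. The groups did not overlap, and replicate 1 was the highest in both. Its log2 change was −0.85 ± 0.16 (SE, limma adjusted p = 0.0471), with −0.80, −0.89 and −0.85 in pairs 1 to 3. In the unpaired fit this call was lost with TMM scaling (limma adjusted p = 0.0502) and with a mean of at least 50 (0.0540). The deposited log2 values also lost it (0.0517). It was also lost without any of 5 of the libraries in turn in the unpaired fit. In the paired fit, which does not use the spread of a single gene between pairs, the call held (limma adjusted p = 5.76e-08). Over all alternatives the adjusted p ranged from 2.09e-08 to 0.286. The third fallen gene went from 345, 337 and 339 to 202, 196 and 180 normalized counts, a log2 change of −0.82 ± 0.14 (limma adjusted p = 0.0331). Its call was likewise lost in the unpaired fit without any of the same 5 libraries in turn.

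In the paired fit, the 71 gained genes had a median log2 change of 2.31 and the 270 raised genes one of 0.90. At least a 2-fold rise was found for all 71 gained genes and for 116 of the 270 raised genes. A single gained gene had 0 control reads and stood at 25.9 normalized counts in Tbx6-r.b>Bra embryos, at least 26.8-fold higher when 3 reads over the 3 controls are taken as the floor. With that gene at its bound the gained median stayed at 2.31. The 104 lowered genes had a median log2 change of −0.63 (−1.26 to −0.41), and 8 of them were at least 2-fold lower. KH.S1404.2 was again the only gene that fell to a mean under 10. The gained genes as a whole reached 218, 372 and 275 CPM with Tbx6-r.b>Bra, from 36.3, 39.6 and 36.6 in control.

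The balance of rises and falls varied with expression level. In the paired fit, 83 genes rose and 2 fell among 1477 genes with a mean of 10 to 30 normalized counts over the 6 libraries (5.62% and 0.135%). At 100 to 300 the counts were 77 and 25 of 2988 genes (2.58% and 0.837%). Among the 1808 genes at 1000 or more, 19 rose and 32 fell (1.05% and 1.77%). In these 3 ranges the risen genes had median log2 changes of 1.86, 0.65 and 0.51, and in the last 2 the fallen genes had medians of −0.63 and −0.52. The median standard error was 0.33 in the lowest range and 0.13 in the highest, so smaller changes could be called among abundant genes. Among the genes at 1000 or more, edgeR with the block gave 19 risen and 33 fallen, and DESeq2 with the block 9 and 35. The order turned without replicate 3, where 56 rose and 32 fell, and the counts dropped to 3 and 6 without replicate 1.

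**Figure D3:**
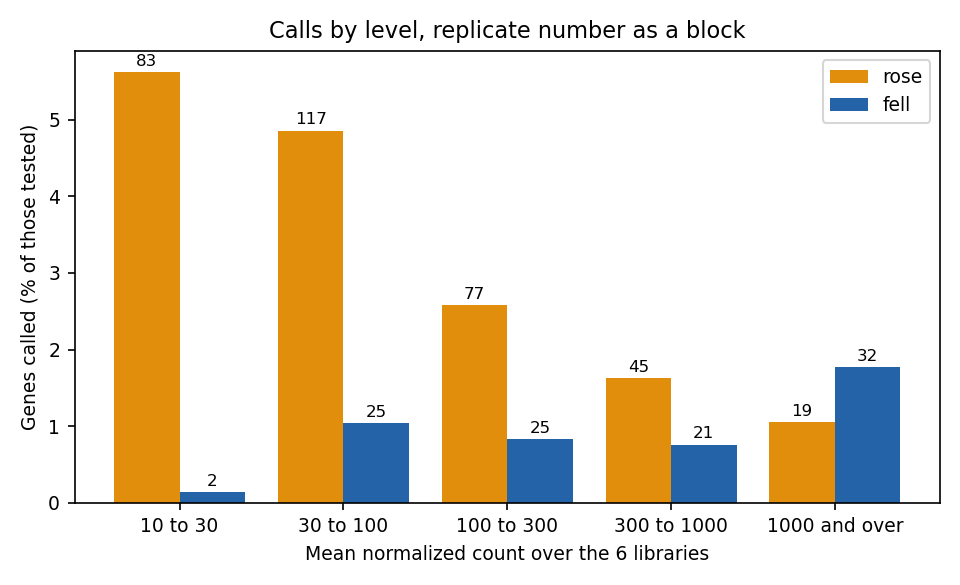
Share of tested genes called in the paired fit (y, percent) by mean normalized count over the 6 libraries (x), with the number of genes above each bar. The share that rose goes from 5.62% at 10 to 30 down to 1.05% at 1000 and over, where the share that fell is 1.77%.

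The size of the response was then read in each of the 3 pairs. A pair here is the control and the Tbx6-r.b>Bra library with the same replicate number. To measure a pair on genes it had not helped to choose, genes were called in the paired fit of the other pairs, which has 1 residual degree of freedom per gene, and their change was then read in the pair left out. For pair 1, 232 genes were higher in the other pairs (2.02% of tested genes), and 222 of them (95.7%) were above control in pair 1, with a median log2 change of 0.996. For pair 2, 219 genes were chosen (1.92%), of which 216 (98.6%) were above control, with a median of 1.54. For pair 3, 375 genes were chosen (3.28%), of which 295 (78.7%) were above control, with a median of 0.61. Over all tested genes, 48.8%, 49.4% and 50.2% were above control in pairs 1, 2 and 3. The gene sets differ between these readings, and in the pairs that chose them the medians were 1.62, 1.27 and 0.97. Over the 341 genes called with all pairs, the medians were 0.875, 1.34 and 1.03 in pairs 1, 2 and 3. Pair 2 had the highest median either way, while the order of pairs 1 and 3 depended on which genes were used.

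Most gained and raised genes were also above control in the pair left out, with a lower share of raised genes in pair 3 only, a difference that was not tested. In pair 3, 57 of 60 gained genes were above control, with a median log2 change of 2.47, whereas 238 of 315 raised genes were, with a median of 0.47. In pair 1 these were 63 of 67 gained genes with a median of 1.86, and 159 of 165 raised genes with a median of 0.77. In pair 2 all 50 gained genes were above control with a median of 2.89, and 166 of 169 raised genes with a median of 1.32. In the choosing pairs the medians for pairs 1, 2 and 3 were 2.64, 2.52 and 2.61 for gained genes and 1.35, 1.02 and 0.81 for raised genes, so for both classes pairs 1 and 3 lay below the pairs that chose the genes and pair 2 above them.

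Fallen genes also carried over. Of 38 genes lower in the other pairs (0.332% of tested genes), 37 were below control in pair 1, with a median log2 change of −0.53. In pair 2, 65 of 77 (0.675% of tested genes) were below control with a median of −0.61, and in pair 3, 95 of 108 (0.945%) with a median of −0.49. Over all tested genes, 51.2%, 50.6% and 49.8% were below control in pairs 1, 2 and 3. Over the 105 genes called with all pairs the medians were −0.45, −0.78 and −0.70.

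**Figure D4:**
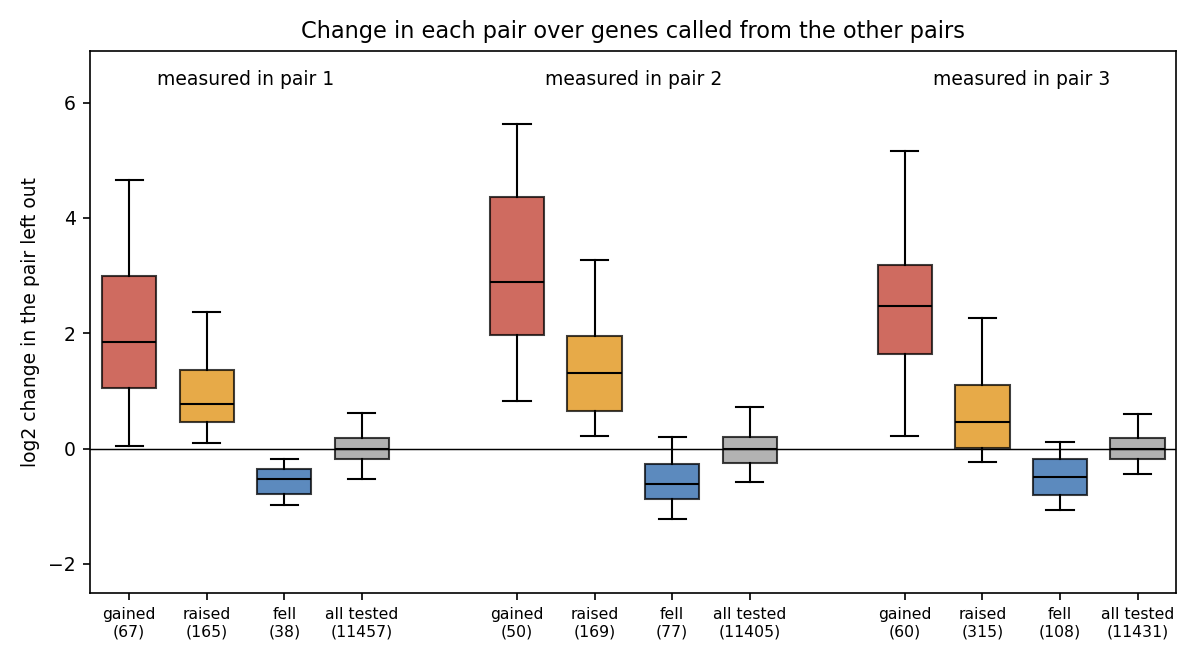
Log2 change in the pair left out (y) for genes called from the other pairs, split into gained, raised and fallen genes, beside all tested genes; boxes span the quartiles, lines are medians, whiskers run from the 5th to the 95th percentile, and the number of genes is in parentheses. Gained genes have medians of 1.86, 2.89 and 2.47 in pairs 1 to 3, raised genes 0.77, 1.32 and 0.47, and fallen genes −0.53, −0.61 and −0.49.

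Genes chosen with all 3 pairs also varied between pairs, though here the choice pushes each pair in the called direction. Of the 71 gained genes of the paired fit, 53 were at least 2-fold higher in each of the 3 pairs, and of the 270 raised genes 48 were. Another 91 raised genes passed 2-fold in exactly 1 pair. The change was largest in pair 2 for 176 of the 270 raised genes and for 30 of the 71 gained genes. It was also largest there for 4508 of the 10999 genes not called, a share similar to that of the gained genes. Pair 2 had the widest spread of log2 changes over all tested genes (SD 0.51, against 0.44 and 0.43 in pairs 1 and 3). The direction was the same in all 3 pairs for 69 gained, 252 raised and 99 lowered genes, so 18 raised and 5 lowered genes were called although 1 pair went the other way. Among the gained genes, 1 was below control in pair 1 and another in pair 3. Over all 11445 tested genes, 12.8% were higher in all 3 pairs and 12.8% were lower in all 3. Regardless of calls, at least 2-fold higher levels were found for 254, 344 and 247 genes in pairs 1, 2 and 3, and at least 2-fold lower levels for 104, 89 and 61. Log2 changes of different pairs share no library, and across the 11445 genes they correlated at 0.49 (pairs 1 and 2), 0.41 (pairs 1 and 3) and 0.45 (pairs 2 and 3), as a description over genes that are not independent replicates.

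All 58 genes that rose in the unpaired fit had non-overlapping groups, which calling them from the same libraries favours. Of all tested genes, 4.4% had such groups in that direction and 3.1% in the other. In the paired fit the groups did not overlap for 64 of 71 gained, 187 of 270 raised and 71 of 104 lowered genes. The Tbx6-r.b>Bra libraries scattered more for the gained genes of the paired fit, with a median coefficient of variation of 41.9%, than for its raised genes (24.4%) and the genes not called (16.1%). The gained genes also rested on fewer reads, with a median Tbx6-r.b>Bra level of 26.7 normalized counts against 141 for the raised genes, and the part of this in their scatter was not tested.

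To see where the response was particular to Tbx6-r.b regulatory DNA, the Tbx6-r.b>Bra libraries were set against the 3 libraries of Etr1>Bra, in which Venus-Bra is under regulatory DNA of the neural gene Etr1. Controls do not enter this test, but the genes were chosen for being high or low in the same Tbx6-r.b>Bra libraries. That choice favours higher values there for risen genes and lower values for fallen genes. In the paired limma test of these 6 libraries, 313 of 11529 genes differed (2.71%): Tbx6-r.b>Bra was the higher group for 101 (0.876%) and Etr1>Bra for 212 (1.84%). Among the 71 gained genes, the Tbx6-r.b>Bra level was higher for 6 and the Etr1>Bra level for 9. Among the 270 raised genes these numbers were 14 and 48. Of the 104 fallen genes that could be tested, 13 were lower with Tbx6-r.b>Bra than with Etr1>Bra, the direction that their choice favours, and 0 were higher. For the other genes of these sets a difference was not shown. The 313 differences came down to 0 in limma without the block (351 at an unadjusted p under 0.05) and to 0 in the block without replicate 2 (1784 unadjusted), to 61 without replicate 3 and to 203 without replicate 1. Among the 341 risen genes, 77 differed, and this came down to 0 without the block (59 unadjusted), 0 without replicate 2 (82 unadjusted) and 35 without replicate 3. Without replicates 2 and 3 in turn, 339 and 340 of the 341 could be tested. The lean towards Etr1>Bra also rested on replicate 3: at an unadjusted p under 0.05, Tbx6-r.b>Bra was the higher group for 48 risen genes and Etr1>Bra for 87 with all replicates, and for 78 and 36 without replicate 3.

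Among the named genes, KH.C10.588 was higher with Tbx6-r.b>Bra than with Etr1>Bra, at 416, 351 and 198 against 107, 91.2 and 160 normalized counts when the libraries were scaled together. The log2 difference was 1.39 ± 0.19 (SE, paired limma adjusted p = 8.71e-11). KH.L12.5 stood at 765, 1000.4 and 680 with Tbx6-r.b>Bra and at 222, 331 and 1062 with Etr1>Bra, so the groups overlapped and replicate 3 went the other way. Its log2 difference of 0.91 ± 0.17 passed the paired test (adjusted p = 9.3e-06), which does not use that spread between pairs. KH.C3.406 was lower with Tbx6-r.b>Bra, at 426, 324 and 341 against 843, 442 and 441, a log2 difference of −0.60 ± 0.17 (adjusted p = 0.0217). None of these 3 calls held in limma without the block or in the block without replicate 2. KH.S1404.2 had too low a mean in these 6 libraries to be tested.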

How the data were processed

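Per the labels' protocols, RNA was sequenced from stranded mRNA libraries. The deposited tables hold library-size normalized counts (a coverage signal per gene, not negative) and, in a second set of columns, the authors' regularized log2 values, per the file headers. The submitters' processing notes list TopHat2 2.9.8b and DESeq 1.8.1. How reads were counted, with or without strand, and on which genome build is not given in the sources used here, and reads shared by overlapping, antisense or near-identical gene models may therefore be misassigned. Dividing each normalized value by its library's smallest gave whole numbers throughout (100%, tolerance 0.01), which were taken as reads. Control reads were identical in both deposited tables (0 differed). Replicates were not copies: the chi-square per gene between them was 11.0 to 34.0, where sampling noise gives about 1.

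The main test, on log2(normalized count + 1) and without a block, was limma 3.58.1 under R 4.3.3, in which the spread was let to follow the expression level. Alternatives were edgeR 4.0.16 (quasi-likelihood) and DESeq2 1.42.0 (Wald) on recovered reads, TMM scaling, pseudocounts of 0.5 and 5, other filters on low values, the deposited log2 values, the replicate block and leaving out libraries. The plan allowed for raw counts, and as the deposited values are normalized, edgeR on reads is an alternative. The constructs were compared on recovered reads of all 9 libraries with joint median-of-ratios scaling, as each table carries its own normalization. Pairing was checked before calls were compared: deviations from group means correlated at 0.62 to 0.69 between control and Tbx6-r.b>Bra libraries of the same number and at 0.48 to 0.72 between the constructs, and not above −0.11 between different numbers. Those negative values follow from the positive ones, since deviations within a group sum to 0. Replicate numbers were accordingly treated as pairs in the paired fit, in the readings by pair and between constructs. The main test against control stayed without the block. Standard errors and adjusted p-values printed for single genes against control are from that unpaired test unless the paired fit is named. The procedures were run on simulated reads in which both groups shared the replicate effects, a setting that suits the paired fit. The outcome is not used here.

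Named genes were the called gained and raised gene with the largest rise and the called genes with the largest falls, all averaging at least 1 CPM and without overlap between groups. The experiment, its classes and its rules were chosen with earlier results of these data known.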

Additional observations from a re-analysis of the deposited data

Results flagged for a closer look

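For 3 named genes the response to Tbx6-r.b>Bra differed from that to Etr1>Bra in the paired limma test. Taken as Tbx6-r.b>Bra minus the neural construct, the log2 difference was 1.39 for KH.C10.588, 0.91 for KH.L12.5 and −0.60 for KH.C3.406. These genes were named for large changes in the same Tbx6-r.b>Bra libraries, which favours differences in these directions. None of the 3 passed without the block or in the block without replicate 2, where 0 genes in all were called. In these 2 settings 341 and 339 risen genes were tested, with a smallest limma adjusted p of 0.156 and 0.321. The groups of KH.L12.5 overlapped, and its replicate 3 went the other way.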

How the results depend on the processing

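The count of 61 called genes was 446 with the replicate block, 424 with the block and robust moderation, 444 with the block in edgeR and 226 in DESeq2, 140 in DESeq2 without the block and 34 with a mean of at least 50. In the same order, gained genes (21) were 71, 72, 77, 44, 37 and 1. Raised genes (37) were 270, 251, 263, 119 and 83, and 32 with the higher minimum. Fallen genes (3) were 105, 101, 104, 63, 20 and 1. The regularized log2 values gave 13 gained genes. TMM scaling, other pseudocounts, no filter, edgeR without the block and a split at 5 or 20 kept these counts within 1.5 times. Leaving out 1 library without the block, called genes ranged from 14 to 94, gained from 1 to 25, raised from 10 to 56 and fallen from 1 to 14. In the block without replicate 1, 2 and 3, called genes were 270, 296 and 483, gained 67, 50 and 60, raised 165, 169 and 315, and fallen 38, 77 and 108. The median change of fallen genes in pairs 1, 2 and 3 was −0.45, −0.78 and −0.70 over genes called with all pairs, and −0.47 in pair 1 with TMM. The 77 risen genes that differed between constructs were 0 without the block, and 56, 0 and 35 in the block without replicate 1, 2 and 3. The planned edgeR test between constructs was not run. KH.C10.588, KH.L12.5 and KH.S1404.2 stayed called in every alternative in which they were tested, and KH.C3.406 in 13 of 21. Causes were not tested. Counts of a few reads limit the precision for gained genes.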

Other observations

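Without a filter on low values, 14574 gene models were tested in limma without the block and 67 rose, of which 31 had a control mean under 10. Of all 70 genes called there, 60 were among the 61 called with the filter. Gene models whose identifier begins with KH.C, KH.L and KH.S made up 70.2%, 20.1% and 9.73% of the tested genes, and the paired fit called 3.995%, 3.48% and 4.04% of each kind.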
